A study of Mus musculus with 6 samples.

Results

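The Sprr2 small proline-rich gene cluster was followed in the corneal epithelium of mice that lacked RelA in Krt14-expressing cells. The members were the genes of the expression table whose symbol begins with Sprr2, which gave 10 of 17554 genes, namely Sprr2a1, Sprr2a2, Sprr2a3, Sprr2b, Sprr2d, Sprr2e, Sprr2f, Sprr2h, Sprr2i and Sprr2k. The family was selected on the expected counts and FPKM of these same samples, in which it was higher in mutant than in control samples. Its values in that comparison are therefore a description and carry no test. Sprr2g was not analysed here.

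Bulk RNA-seq compared 3 control samples, labelled WT, with 3 mutant samples, labelled Rela-/- and described in the study as Krt14-Cre; Rela f/f. All 6 samples were corneal epithelium of C57BL/6 mice at 2 months of age, separated from the cornea as a layer, and the 3 samples of each group were independent biological samples. RelA is the main transactivating subunit of canonical NF-kB signaling. Cre in the mutant mice was driven by the Krt14 promoter, which is active in basal cells of stratified epithelia, so the conjunctiva, limbus, skin and oral mucosa of the same animals also carried the deletion.

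SPRR2 proteins are short precursors of the cornified envelope, the layer of crosslinked protein that replaces the plasma membrane of terminally differentiated keratinocytes. Transglutaminases join them through glutamine and lysine residues to each other and to larger envelope proteins such as loricrin and involucrin. The genes lie side by side in the epidermal differentiation complex, and in stratified epithelia they are known to be induced by stress, injury and inflammation, while a healthy cornea is a wet, non-cornified surface.

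All 10 genes lie on the plus strand of mouse chromosome 3 (GRCm38) within 218 kb, from 92215835, where Sprr2a1 begins, to 92433927, where Sprr2k ends. Coding sequences read from GENCODE M21 were between 207 and 327 bases long, and each lies within 1 exon. Proline codons made up between 30.9% and 42.6% of the codons before the stop, cysteine codons between 15.7% and 21.4%, and glutamine and lysine codons together between 15.7% and 26.3%. The 4 coding sequences given here show why some members can be measured apart and others cannot. Capitals mark bases that lie in a 50-base stretch, the length of the study's reads, which is found in the annotated transcripts of more than 1 gene, and Sprr2h is given without its last 27 bases.
Sprr2a1, chr3:92219092-92219343, plus strand: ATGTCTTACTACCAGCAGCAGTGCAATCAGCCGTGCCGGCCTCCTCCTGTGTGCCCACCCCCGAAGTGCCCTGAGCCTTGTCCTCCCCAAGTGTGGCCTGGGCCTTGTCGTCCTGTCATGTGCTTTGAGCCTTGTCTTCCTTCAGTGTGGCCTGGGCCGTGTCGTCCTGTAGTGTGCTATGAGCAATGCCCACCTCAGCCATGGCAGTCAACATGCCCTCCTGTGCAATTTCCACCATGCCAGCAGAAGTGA
Sprr2a3, chr3:92288588-92288839, plus strand: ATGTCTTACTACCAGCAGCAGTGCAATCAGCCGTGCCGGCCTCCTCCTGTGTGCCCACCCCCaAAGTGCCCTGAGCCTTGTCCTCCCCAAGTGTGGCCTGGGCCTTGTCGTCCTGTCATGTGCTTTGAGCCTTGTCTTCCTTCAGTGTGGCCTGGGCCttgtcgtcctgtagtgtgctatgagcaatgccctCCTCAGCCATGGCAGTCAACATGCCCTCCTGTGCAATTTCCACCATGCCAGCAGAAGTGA
Sprr2d, chr3:92340254-92340511, plus strand: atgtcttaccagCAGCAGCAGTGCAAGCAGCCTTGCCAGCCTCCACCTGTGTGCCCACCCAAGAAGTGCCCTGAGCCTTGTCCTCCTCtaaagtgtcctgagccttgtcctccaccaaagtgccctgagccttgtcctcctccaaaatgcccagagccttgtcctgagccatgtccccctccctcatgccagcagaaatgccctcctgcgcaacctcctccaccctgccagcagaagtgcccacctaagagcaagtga
Sprr2h, chr3:92386632-92386931, plus strand: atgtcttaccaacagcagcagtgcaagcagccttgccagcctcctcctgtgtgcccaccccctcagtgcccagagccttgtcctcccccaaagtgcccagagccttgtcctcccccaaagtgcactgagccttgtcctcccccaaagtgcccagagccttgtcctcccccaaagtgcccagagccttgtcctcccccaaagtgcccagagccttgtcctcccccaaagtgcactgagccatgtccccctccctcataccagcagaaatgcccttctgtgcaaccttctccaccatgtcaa
The coding sequence of Sprr2a2 was identical to that of Sprr2a1, and that of Sprr2a3 differed from it at 3 bases. Over whole GENCODE M21 transcripts, 96.3% of the 50-base windows of Sprr2a1, 96.5% of those of Sprr2a2 and 61.1% of those of Sprr2a3 were shared with another gene, mostly with each other. The shared portion was 14.1% for Sprr2b, 12.5% for Sprr2i, 10.2% for Sprr2e, 4.27% for Sprr2d and 0.714% for Sprr2f. Sprr2h and Sprr2k shared no window with any other gene. GENCODE is not the transcript set that the authors counted on, so these percentages describe the sequences and not the authors' index.

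The promoter windows of the cluster, taken at the annotated starts, fell into separate kinds by sequence. The 300-base windows that RefSeq (GRCm38.p6) gives for all 10 genes, 250 bases before and 50 bases after the annotated start, were searched on both strands for 8 motifs of factors known at Sprr2 promoters or of NF-kB. In 7 of the 10 windows the AP-1 site TGANTCA, the octamer ATTTGCAT bound by POU factors and the TATA box TATAAA occurred together, in that order. The AP-1 match began 193 to 198 bases before the start, the octamer 108 to 112 bases before it and the TATA box 29 bases before it in all 7 genes, and Sprr2k had another AP-1 match 182 bases before its start. Of 32851 promoter windows in the same table, 7.81% held the AP-1 site, 1.74% the octamer, 13.6% the TATA box and 0.0487% all 3. These windows include the 7 Sprr2 windows themselves. The 7 were 61.9% to 89.1% identical to each other in pairs, so they are not independent cases. The last 210 bases before the start are given for Sprr2d, Sprr2f and Sprr2h, the single rows with the highest mean FPKM in mutant samples, and for Sprr2k with its doubled AP-1 match. Capitals mark the AP-1, octamer and TATA matches.
Sprr2d, chr3:92338930-92339139, plus strand: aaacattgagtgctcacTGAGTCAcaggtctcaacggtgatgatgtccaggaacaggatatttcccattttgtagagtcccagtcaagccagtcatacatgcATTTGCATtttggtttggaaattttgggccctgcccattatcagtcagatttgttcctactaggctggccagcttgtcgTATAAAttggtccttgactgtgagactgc
Sprr2f, chr3:92364977-92365186, plus strand: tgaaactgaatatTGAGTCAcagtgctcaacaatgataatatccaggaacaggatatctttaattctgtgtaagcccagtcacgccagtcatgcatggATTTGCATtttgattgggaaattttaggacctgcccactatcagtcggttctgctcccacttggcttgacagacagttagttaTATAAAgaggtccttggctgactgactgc
Sprr2h, chr3:92385475-92385684, plus strand: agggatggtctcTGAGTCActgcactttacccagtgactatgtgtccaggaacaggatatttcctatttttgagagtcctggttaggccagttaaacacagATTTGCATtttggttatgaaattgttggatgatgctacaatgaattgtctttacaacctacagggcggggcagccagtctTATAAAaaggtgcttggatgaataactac
Sprr2k, chr3:92432372-92432581, plus strand: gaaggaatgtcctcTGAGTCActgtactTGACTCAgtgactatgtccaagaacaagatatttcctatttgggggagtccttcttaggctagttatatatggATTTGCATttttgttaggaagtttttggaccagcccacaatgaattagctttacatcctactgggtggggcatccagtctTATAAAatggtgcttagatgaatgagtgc
The windows of Sprr2a1, Sprr2a2 and Sprr2a3 held none of these 3 motifs. The windows of Sprr2a1 and Sprr2a2 were identical over all 300 bases, and each held the ETS-type sequence AGGAAG 120 bases before the start, while Sprr2a3 held it 92 bases before. AGGAAG was also found in Sprr2f and Sprr2k and in 35.4% of all windows. GENCODE M21 places the start of the Sprr2a1 transcript 36 bases before the table's start and that of Sprr2b 85 bases before it. The longer transcripts of Sprr2a2 and Sprr2a3 start 100 and 113 bases after it. Their shorter transcripts start 34727 bases before and 3262 bases after it. The promoter windows of these genes are thus less certain than those of Sprr2d to Sprr2k, where both annotations give the same start for the longest transcript. The motifs missing from the Sprr2a windows and the distances given for Sprr2b hold for the table's starts only. The STAT-type TTCNNNGAA was found in Sprr2a3 and Sprr2i and in 8.3% of all windows. The antioxidant response element TGACNNNGC was found in Sprr2f alone and in 12.4% of all windows, and the KLF-type CCACCC in Sprr2b and Sprr2k and in 31.5%. The kappa-B consensus bound by NF-kB dimers was found in 0 of the 10 windows and in 4.51% of all windows, which says only that these letters were not in these 300 bases.

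**Figure D1:**
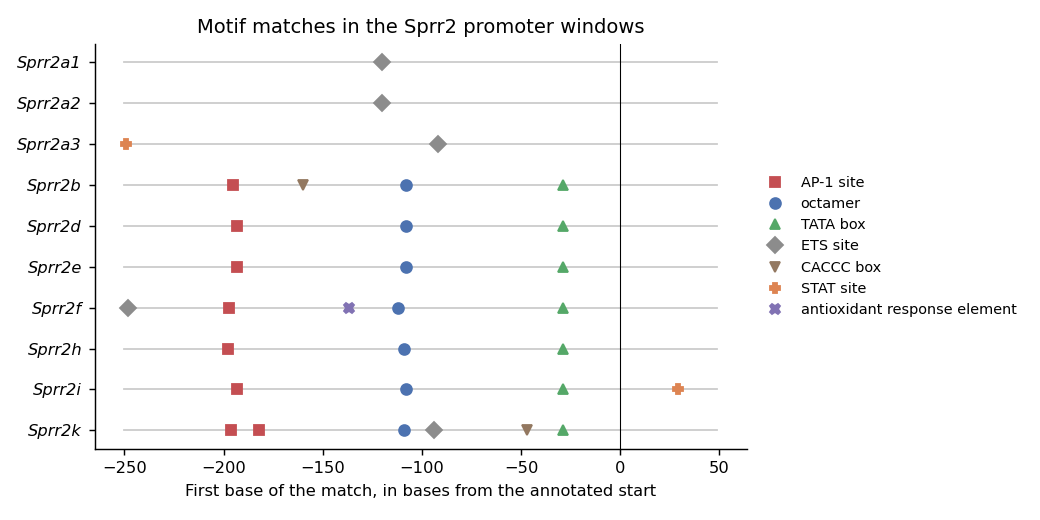
Motif matches in the promoter window of each Sprr2 gene. The horizontal axis is the distance of the match's first base from the annotated start, and the rows are the genes in chromosomal order. In 7 genes the AP-1 site, octamer and TATA box stand in the same order at nearly the same distances, and in the 3 Sprr2a genes none of these 3 is found.

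In control corneal epithelium the Sprr2 genes were close to the limit of detection. Of the 30 control values, 15 were 0, and the highest was 3 expected counts of Sprr2f in control 3, in libraries of 19492942 to 19733834 expected counts over all 6 samples. The highest control FPKM (fragments per kilobase of transcript, scaled to the total of the sample) was 0.26. Summed over the 10 genes, control samples 1, 2 and 3 held 10.06, 4 and 12.01 expected counts. The same sum was 3430.99, 803.01 and 629 in mutant samples 1, 2 and 3. Every mutant sample therefore lay far above every control sample, and mutant 1 held several times the counts of the other mutant samples. The sum of FPKM was 0.46 ± 0.181 (SD, n = 3) in control and 77.4 ± 69.1 (SD, n = 3) in mutant samples. The mutant total was 186 times the control total after scaling for library size, with a 95% counting interval of 127 to 286 that covers counting error only. In the edgeR model the log2 fold change of the sum was 7.53 with a standard error of 0.92, and it was 6.34 without mutant 1. In bulk samples, more cells that express these genes and more RNA per cell cannot be told apart.

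Sprr2h was the member whose counts rest on no shared sequence. Its expected counts were 0, 1 and 2 in control samples against 425, 140 and 164 in mutant samples, all whole numbers, which is 0, 0.07 and 0.14 FPKM against 29.96, 9.84 and 11.42 FPKM. The mutant values did not overlap the control values, and mutant 2 and mutant 3 were close to each other while mutant 1 was 3.05 times mutant 2 in scaled counts. The ratio of totals was 242, with a counting interval of 82.5 to 1180, and the log2 fold change was 7.76 (SE 0.77), with 8.62 without control 3 and 7.06 without mutant 1. Sprr2k, the other member without shared windows, was listed at 0 throughout the control group, against 14, 2 and 7 counts in mutant samples 1, 2 and 3. Its mutant total was at least 7.64-fold higher than the level of 3 counts over the control group, the upper limit that a count of 0 allows.

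Sprr2d, Sprr2e, Sprr2f and Sprr2i share short stretches of coding sequence with each other. Sprr2d had 2, 2 and 1 expected counts in control and 505.69, 151.6 and 44.6 in mutant samples, a ratio of 140 (counting interval 59.7 to 432). Sprr2f had 1, 0 and 3 counts in control and 412.04, 138.6 and 64.03 in mutant samples, a ratio of 153 (59.5 to 564). For both genes mutant 1 was highest and mutant 3 lowest, and no mutant value reached down to a control value. Sprr2e was lower, with 0, 0 and 1 counts against 68.94, 32.14 and 9.36, and its ratio of 110 has a counting interval of 19.3 to 4370 because a lone control read carries it. Sprr2i was listed at 0 throughout the control group, against 20.39, 3.67 and 7.02 counts in mutant samples 1, 2 and 3, at least 10.3-fold above the level of 3 counts over the control group. These genes thus followed the same direction at levels that differed widely.

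The rows Sprr2a1, Sprr2a2 and Sprr2a3 could not be read apart. Sprr2a1 had 16.17, 272.57 and 130.04 expected counts in mutant samples 1, 2 and 3, and Sprr2a2 had 1682.48, 0 and 130.04. The split between these identical coding sequences thus went almost wholly to Sprr2a2 in mutant 1, wholly to Sprr2a1 in mutant 2 and evenly in mutant 3. The control values of both rows were 2.64, 0 and 2.47. Sprr2a3, which has windows of its own, had 1.78, 1 and 0 counts in control and 279.79, 59.28 and 70.61 in mutant samples. The sum of the 3 rows does not depend on the split, and it was 7.06, 1 and 4.94 in control and 1978.44, 331.85 and 330.69 in mutant samples. Its ratio was 202 (counting interval 118 to 381), and mutant 2 and mutant 3 were nearly equal. Sprr2b, which shares sequence with the Sprr2a genes, had 0, 0 and 0.07 counts in control and 6.49, 3.15 and 2.3 in mutant samples and had the lowest mean FPKM of the family in the mutant group.

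Shared reads left a trace in the numbers themselves. Of the 44 Sprr2 values above 0, 29 were not whole, and none of these belonged to Sprr2h or Sprr2k. In mutant 2 the counts of Sprr2a1, Sprr2a2, Sprr2a3 and Sprr2b added up to 335, and those of Sprr2d, Sprr2e, Sprr2f and Sprr2i to 326.01. In mutant 3 the same sums were 332.99 and 125.01. The fractions thus cancelled within the groups of genes that share 50-base windows to within 0.01 counts in these samples. In mutant 1 the sums were 1984.93 and 1007.06, somewhat further from whole numbers. Statements on a single Sprr2a gene are uncertain for this reason, whereas a sum over a sharing group does not depend on how reads were divided inside it.

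**Figure D2:**
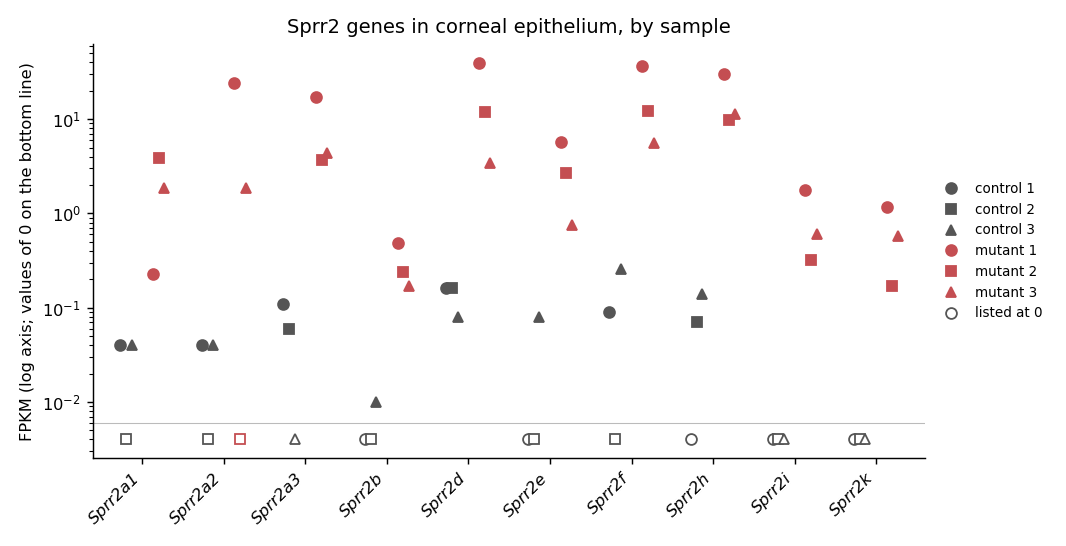
FPKM of the 10 Sprr2 genes in each of the 6 samples on a log axis, with control samples in grey and mutant samples in red, and values of 0 drawn as open symbols on the bottom line. Control values stop at 0.26 FPKM, and Sprr2a2 is listed at 0 in mutant 2.

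Per length, Sprr2d, Sprr2f and Sprr2h were the highest single rows of the family in mutant samples. Their mean FPKM was 18.3 ± 18.9, 18.0 ± 16.2 and 17.1 ± 11.2 (SD, n = 3), and the 3 genes did not differ beyond their spread. The Sprr2a rows, which could not be read apart, summed to 19.1 ± 19.6 FPKM (SD, n = 3), no lower than these genes. Row by row the order below them was as follows. Sprr2a2 at 8.67 ± 13.5, Sprr2a3 at 8.43 ± 7.7, Sprr2e at 3.04 ± 2.49 and Sprr2a1 at 2.0 ± 1.84 followed, and then Sprr2i at 0.897 ± 0.769, Sprr2k at 0.64 ± 0.503 and Sprr2b at 0.3 ± 0.168. Neighbours in this order overlapped in their mutant values throughout. All mutant values of Sprr2h, at 9.84 FPKM or more, lay above all values of Sprr2e, Sprr2i, Sprr2k and Sprr2b, which reached at most 5.7 FPKM. The place of Sprr2a1 and Sprr2a2 in this order rests on transcript models far longer than the rest, since counts, FPKM and library totals gave an effective length of 3563 and 3566 bases for them against 828 for Sprr2a3 and 582 to 728 for the other members with an FPKM above 1.

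Of the 10 members, 5 passed the filter on low counts (Sprr2a1, Sprr2a3, Sprr2d, Sprr2f and Sprr2h) and 5 did not (Sprr2a2, Sprr2b, Sprr2e, Sprr2i and Sprr2k). A gene was called at an adjusted p of at most 0.001 with a fold change of at least 2, by edgeR's quasi-likelihood test. Sprr2h was the 1 member called higher, beside 1.31% of 12667 genes called higher and 0.0553% called lower. At an adjusted p under 0.05, 5 members were higher, beside 7.82% of all genes higher and 5.42% lower. The mutant samples lay above all control samples in 9 of 10 members, with Sprr2a2 as the exception, beside 17.3% of all genes tested. The members were chosen on this contrast, and nothing is read from these counts.

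The mutant samples differed widely from each other in the Sprr2 sum. In CPM, the counts scaled to the TMM library size, the Sprr2 sum was 177, 41.3 and 31.4 in mutant samples 1, 2 and 3, so the highest was 5.65 times the lowest, and 1.32 times when mutant 1 was left out. Mutant 1 was the highest sample in 9 of 10 members, all but Sprr2a1, while the lowest was mutant 2 in 5 members, mutant 3 in 4 and mutant 1 in 1. The highest over lowest ratio was 3.05 for Sprr2h, 6.2 for the Sprr2a sum, 6.67 for Sprr2f, 7.63 for Sprr2e and 11.7 for Sprr2d. For the 165 other genes called higher the median ratio was 1.44, and 2 of them exceeded the Sprr2 sum. A gene with a wide mutant spread is less likely to be called with 3 samples a group, so these 165 genes are no neutral reference, and S100a8, with a ratio of 8.44 and an adjusted p = 0.0023 by edgeR, is not among them. These 2 were S100a9, a calcium-binding alarmin subunit, at 7.12 and Ppbp, a platelet and myeloid chemokine, at 6.65, and Ppbp is named here after its value was seen. Mutant 1 was the highest mutant sample in 113 of the 165 genes, so its high position was not particular to Sprr2.

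**Figure D3:**
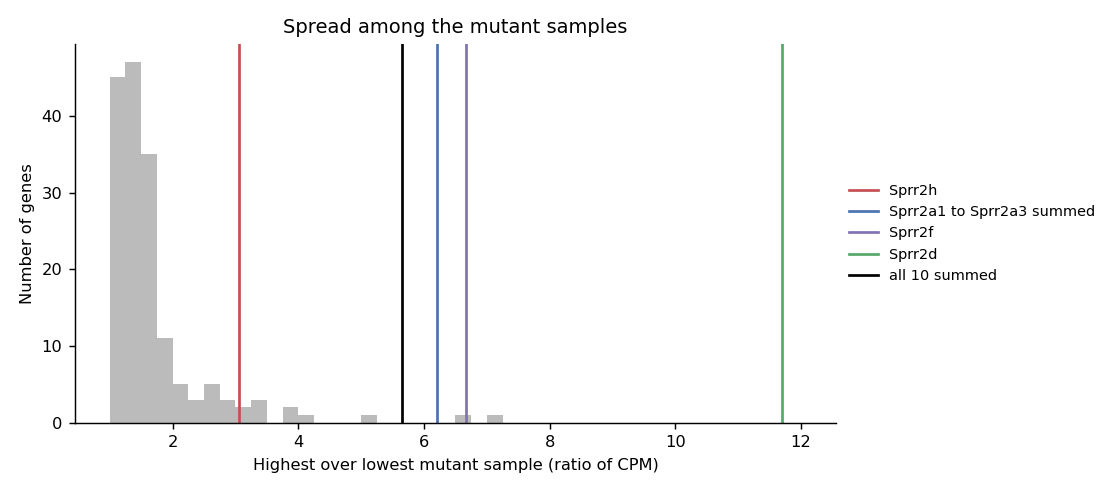
Highest over lowest of the 3 mutant samples, as a ratio of CPM, for the 165 other genes called higher (grey bars, number of genes) and for Sprr2 genes and sums (coloured lines). Most grey genes lie below 2, and the Sprr2 sum lies at 5.65.

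The makeup of the Sprr2 counts was also compared between the mutant samples. The Sprr2a sum made up 57.7% of the Sprr2 counts in mutant 1 (Wilson 95% interval 56.0 to 59.3), 41.3% in mutant 2 (38.0 to 44.8) and 52.6% in mutant 3 (48.7 to 56.5). Sprr2h made up 12.4% in mutant 1 (11.3 to 13.5), 17.4% in mutant 2 (15 to 20.2) and 26.1% in mutant 3 (22.8 to 29.6). Sprr2d went the other way between the last 2 samples, from 18.9% in mutant 2 to 7.09% in mutant 3, with 14.7% in mutant 1. The intervals of Sprr2h did not overlap between samples, while those of the Sprr2a sum in mutant 1 and mutant 3 did. These intervals cover counting error only, and over all genes pairs of mutant libraries differed by a chi-square of 9.88 to 27.6 per degree of freedom, where counting error alone gives about 1. The shares are thus values of 3 single libraries, and their differences were not tested.

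**Figure D4:**
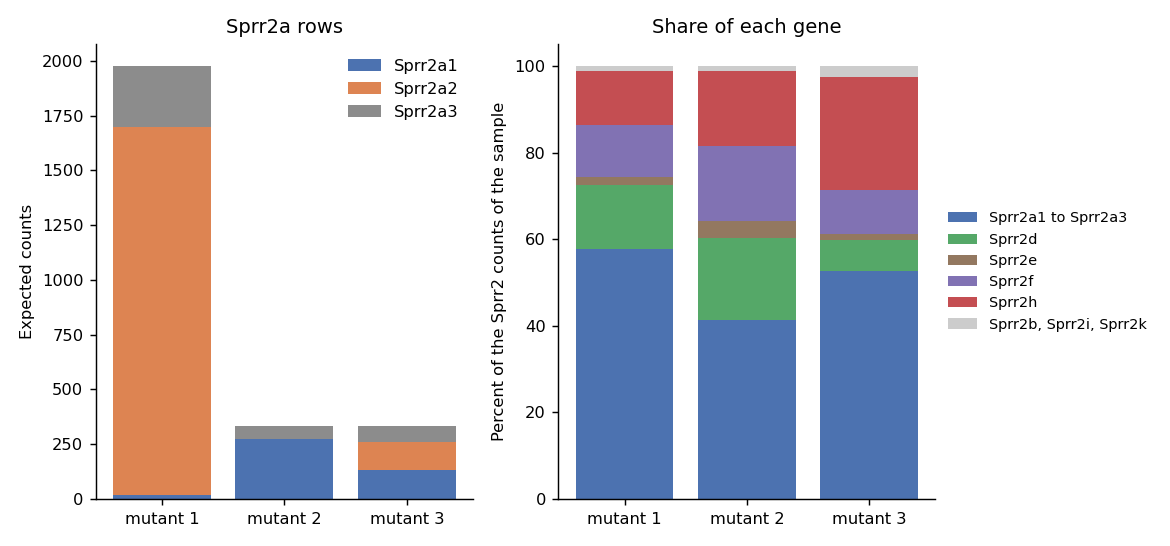
Left, expected counts of the 3 Sprr2a rows stacked for each mutant sample, where the split between Sprr2a1 and Sprr2a2 changes from sample to sample. Right, the percent of each mutant sample's Sprr2 counts that fell to each gene, where Sprr2h rises from 12.4% in mutant 1 to 26.1% in mutant 3.

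The deletion was visible in the data. Rela had 36.47, 34.71 and 33.43 FPKM in control and 4.93, 5.53 and 5.72 FPKM in mutant samples (log2 fold change -2.75, SE 0.085, adjusted p = 5.5e-07 by edgeR). The defining corneal genes Krt12 and Pax6 were present in all samples and did not pass the test (adjusted p = 0.26 and 0.19 by edgeR). The study reported lower K12 mRNA by quantitative PCR in mutant mice of this age. Aldh3a1, of the same marker list, was lower, at a log2 fold change of -0.25 (adjusted p = 0.047 by edgeR). Krt14, also of this list, rose from 149.81 to 203.03 FPKM in control to 1474.44 to 2203.6 FPKM in mutant samples (adjusted p = 1.1e-05 by edgeR). The genotypes parted on the first principal component (65.7% of the variance), and the second (11.6%) set mutant 1 apart from mutant 2 and mutant 3. The 8 epidermal markers summed to 6.16 to 7.11 FPKM in control and 6.23 to 7.78 FPKM in mutant samples, with Lor, Flg, Flg2 and Krt2 at or near 0. Most of this sum was Krt1 and Krt10. Krtdap, of the same list, had 0, 0 and 0.12 FPKM in control and 1.44, 0.24 and 1.31 FPKM in mutant samples. These mutant values rest on 12, 2 and 11 counts, and Krtdap did not pass the filter on low counts. The 7 keratocyte markers summed to 63.8 to 92.8 FPKM in control and 19.8 to 28.2 FPKM in mutant samples. Without Aldh1a1, which corneal epithelium also expresses, their sum was 0.15 to 0.29 FPKM in control and 2.99, 1.7 and 0.57 FPKM in mutant samples 1, 2 and 3, the order of the Sprr2 sum. Most of this mutant sum was Dcn, at 1.8, 0.96 and 0.39 FPKM on 66, 34 and 14 counts. Kera, of the same list, did not rise, with 0.07, 0.05 and 0.03 FPKM in control and 0.03, 0.05 and 0 FPKM in mutant samples. The 11 leukocyte markers summed to 87 to 100 FPKM in control and to 1790, 414 and 309 FPKM in mutant samples, and without S100a8 and S100a9, which keratinocytes also make, to 83.6 to 93.5 FPKM in control and 123, 91.4 and 75.6 FPKM in mutant samples, and Itgam alone held 50.97 to 94.77 FPKM of it in every sample. Ptprc, carried by all leukocytes, was at or below 0.15 FPKM in every sample. The myeloid gene Lyz2 had 0, 0 and 0.05 FPKM in control and 1.17, 0.64 and 0.19 FPKM in mutant samples, again in the order of the Sprr2 sum. These mutant values rest on 23.7, 13 and 3.79 counts. Ly6g, of the same list, went from 3.27, 2.21 and 4.12 FPKM to 1.81, 1.94 and 2.03 FPKM. Cd68 went from 21.45, 17.31 and 21.84 FPKM to 24.54, 24.06 and 22.11 FPKM. Neither passed an adjusted p under 0.05 by edgeR. Adgre1, Csf1r, Cd3e and Cd207 overlapped between the groups. Markers of conjunctival epithelium summed to 1370 to 1600 FPKM in control and 1080 to 1190 FPKM in mutant samples, with the goblet cell mucin Muc5ac at 0.01 FPKM or less. The part of these markers in the Sprr2 values was not tested.

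Other small proline-rich genes and further genes of the epidermal differentiation complex, the chromosome 3 cluster that holds Sprr2, rose as well. Of 55 listed genes other than Sprr2, 41 were in the table and 26 were tested, and 8 were called higher and 0 lower. At an adjusted p under 0.05, 14 were higher and 0 lower. Over all 12667 genes tested, 1.31% were called higher and 0.0553% lower. At an adjusted p under 0.05 these shares were 7.82% and 5.42%. The list's median log2 fold change was 0.88, beside 0.0 over all genes tested. Of the 8 called, Sprr1b, Sprr3 and Rptn had 4 counts or fewer in every control sample. They passed the filter on low counts only through the mutant group and could only come out higher. With at least 10 counts required in every sample, 5 genes of the list were called higher. Sprr1b, a further envelope precursor, was listed at 0 in all control samples and had 322.51, 166.68 and 298.03 FPKM in mutant samples (adjusted p = 2.2e-05 by edgeR), at least 3980-fold above the level of 3 counts over the control group. Sprr1a rose from 15.34, 10.92 and 50.59 FPKM to 1106.68, 997.87 and 1334.64 FPKM (log2 fold change 5.47, SE 0.51, adjusted p = 1.8e-04 by edgeR), and Sprr3 rose from 0, 0 and 0.05 FPKM to 4.71, 2.64 and 3.18 FPKM (adjusted p = 7.6e-05 by edgeR). The mutant samples lay close together in these genes, with a highest over lowest ratio of 1.31 for Sprr1a, 1.93 for Sprr1b and 1.79 for Sprr3.

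S100a9 rose from 2.98, 3.42 and 6.51 FPKM to 1400.66, 273.39 and 201.32 FPKM (log2 fold change 7.18, SE 0.88, adjusted p = 8e-04 by edgeR), and its mutant samples stood in the same order as the Sprr2 sum. Without mutant 1 its log2 fold change was 5.77, and it was not called without control 1, control 2 or control 3 (adjusted p = 0.0064, 0.012 and 0.0076 by edgeR). The other 4 genes called were Crct1, a cysteine-rich protein gene of the complex (log2 fold change 3.06, SE 0.3), Kprp, a keratinocyte proline-rich protein (1.89, SE 0.18), Rptn, the envelope protein repetin (3.88, SE 0.45) and the calcium-binding S100a4 (1.78, SE 0.22), with adjusted p-values of at most 8e-04 by edgeR. Rptn was low throughout, at 0.01 to 0.05 FPKM in control and 0.35 to 0.42 FPKM in mutant samples. It was not called when any 1 of the 6 samples was left out. Without control 3 the log2 fold changes of Sprr1a, Crct1 and Rptn were 6.46, 3.67 and 4.81, and without control 2 Sprr1b was the 1 gene of these 8 still called. The most abundant genes of the list were S100a6, S100a10 and S100a11, none of which was called, with log2 fold changes of -0.2, -0.02 and 0.48. The late envelope proteins loricrin, filaggrin and hornerin stayed at or below 0.17 FPKM in every sample.

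**Figure D5:**
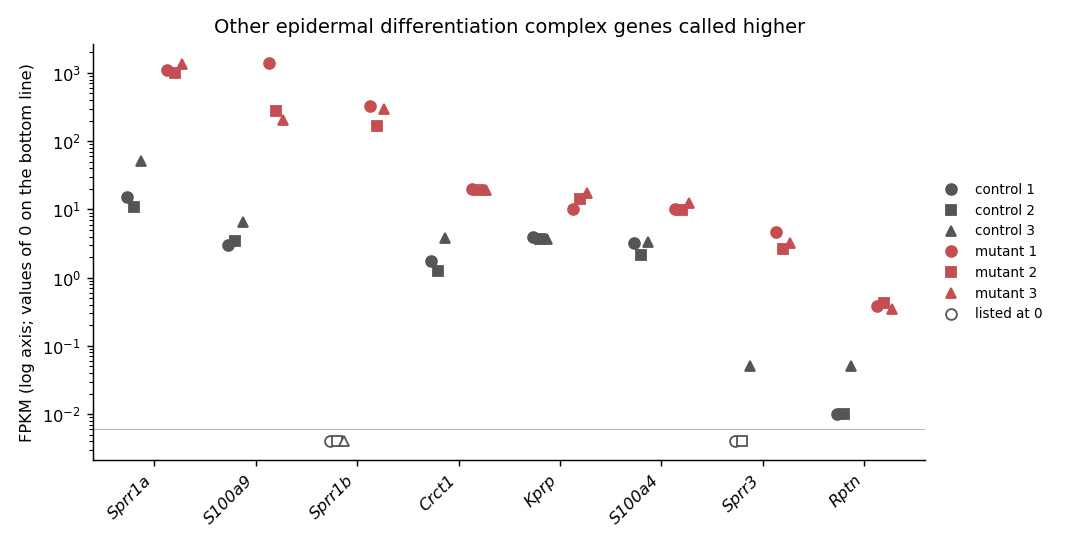
FPKM of the 8 other genes of the epidermal differentiation complex called higher, by sample on a log axis, with control samples in grey, mutant samples in red and values of 0 as open symbols on the bottom line. S100a9 shows the same high mutant 1 value as the Sprr2 genes, while the mutant values of Sprr1a and Crct1 lie close together.

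Genes that work beside SPRR2 in the envelope gave a mixed picture. Of 27 listed envelope proteins and enzymes, 24 were tested, and 6 were called higher and 0 lower. At an adjusted p under 0.05, 11 were higher and 0 lower. The shares over all genes tested were 1.31% called higher and 0.0553% called lower, and 7.82% and 5.42% at an adjusted p under 0.05. The list's median log2 fold change was 0.37. Of the 6 called, Klk7 and Abca12 had 8 counts or fewer in every control sample. These genes passed the filter on low counts only through the mutant group and could only come out higher. With at least 10 counts required in every sample, 4 genes of the list were called higher. Those called were Sbsn, suprabasin (log2 fold change 3.8, SE 0.2), Cnfn, cornifelin (3.13, SE 0.32), the proteases Klk7 (5.21, SE 0.42) and Klk8 (2.26, SE 0.18), the protease inhibitor Spink5 (1.53, SE 0.19) and Abca12, a lipid transporter of lamellar granules, with adjusted p-values of at most 9.3e-04 by edgeR. Abca12 was at most 0.01 FPKM in control and 0.95, 0.23 and 0.61 FPKM in mutant samples. Without control 3 the log2 fold changes of Cnfn and Klk7 were 3.73 and 5.84, and without control 2 Sbsn was the 1 gene of these 6 still called. The most abundant genes, Jup, Anxa1 and Asprv1, were not called, at log2 fold changes of 0.09, 0.81 and -0.19. Tgm1, the transglutaminase that crosslinks envelope precursors, had 28.26, 25.48 and 28.76 FPKM in control and 41.59, 41.22 and 39.96 FPKM in mutant samples, a log2 fold change of 0.57 with an adjusted p = 0.0017 by edgeR, and it is named here after its value was seen.

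Among 30 listed transcription factors known at Sprr2 promoters and readouts of their pathways, 29 were tested, 3 were called higher and 0 lower. At an adjusted p under 0.05, 10 were higher and 2 lower. The shares over all genes tested were 1.31% called higher and 0.0553% called lower, and 7.82% and 5.42% at an adjusted p under 0.05. The list's median log2 fold change was 0.13. Of the 3 called, Fosl1 passed the filter on low counts only through the mutant group and could only come out higher. Fosl1, a FOS subunit of AP-1, was listed at 0 in all control samples and had 0.85, 1.44 and 1.5 FPKM in mutant samples, at least 41.9-fold above the level of 3 counts over the control group (adjusted p = 5.3e-04 by edgeR). It lies on chromosome 19 from 5447698 to 5455938, near the deleted gene Rela, which begins at 5635891. The part of this position in the Fosl1 values was not tested. Jun, its dimer partner, rose from 20.36, 19.77 and 17.84 FPKM to 61.78, 55.69 and 46.81 FPKM (log2 fold change 1.5, SE 0.11, adjusted p = 4.9e-05 by edgeR). Socs3, a feedback target of STAT3, rose from 0.37, 0.19 and 0.24 FPKM to 29.69, 25.19 and 20.18 FPKM (log2 fold change 6.54, SE 0.23, adjusted p = 1e-06 by edgeR). The mutant samples of Jun and Socs3 lay in the order of the Sprr2 sum, whereas in Fosl1 mutant 1 was the lowest. Without control 2, Socs3 was the 1 gene of these 3 still called. The most abundant factors were Elf3, an epithelial ETS factor, Klf4 and Junb, and none of them was called (log2 fold changes 0.02, -0.09 and 0.52). Pou2f3, an octamer-binding factor of stratified epithelium named here after its value was seen, had a log2 fold change of -0.76 with an adjusted p = 0.014 by edgeR. Of 6 NF-kB subunit and inhibitor genes, Rela was called lower, and at an adjusted p under 0.05, 2 were higher and 2 lower, Rela included.

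The 5 genes most like the Sprr2 sum were taken from 10915 genes with a mean count of at least 50 by Pearson's r of log2(CPM + 1) over the 6 samples, which all share 2 genotypes and the same libraries. Fabp5, an epidermal fatty acid-binding protein, Smim3, a small membrane protein, and Serpinb5, the serpin maspin, reached r = 0.999, S100a9 reached 0.998 and Nucb2, a nucleobindin, reached 0.997. Fabp5 had 86.73, 79.38 and 98.24 FPKM in control and 969.69, 493.34 and 422.91 FPKM in mutant samples, so that its mutant 1 was also the highest, at 2.35 times mutant 3. The same ratio was 2.49 for Smim3, 1.28 for Serpinb5 and 1.65 for Nucb2, all below the 5.65 of the Sprr2 sum. These correlations describe 6 points in 2 groups and were not tested.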

How the data were processed

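Total RNA of corneal epithelium from 6 samples was depleted of ribosomal RNA and read as single-end 50-base reads on a BGISEQ-500 instrument, per the study's methods, although the labels name an Illumina kit. The authors filtered reads with SOAPnuke and aligned them with Bowtie2 2.2.5, and they deposited expected counts and FPKM per gene from RSEM 1.2.12, which divides a read that matches several transcripts among them. The labels name mm9, but the chromosome accessions in the table are those of GRCm38, which is used here. The authors' group averages, fold changes, p-values and q-values were not used.

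Expected counts were rounded and fitted with edgeR 4.0.16 in R 4.3.3 (TMM scaling, filterByExpr with its minimum count set to 10 and its minimum total to 15, quasi-likelihood test on genotype, Benjamini-Hochberg adjustment over 12667 genes). The Sprr2 sum was fitted in place of its rows. Each standard error (SE) of a log2 fold change is its absolute value divided by the square root of edgeR's F statistic, so it restates that test. DESeq2 1.42.0 and limma 3.58.1 on log2(FPKM + 1) were alternatives. In counts simulated for this comparison over 12572 genes, with 200 changed 4-fold, edgeR recovered 95% with 2 false calls. The changed genes were drawn from those above a minimum mean count over both groups. The recovery therefore does not cover genes near 0 in control with a wide mutant spread, such as Sprr2. Total expected counts were 19492942 to 19733834 per sample, at which 3 counts equal 0.152 to 0.154 CPM. Intervals are 95% and cover counting error only.

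Named genes were all Sprr2 rows, Rela, the called members and the 3 most abundant members of the lists of the epidermal differentiation complex, the envelope and Sprr2 regulators, and the 5 genes most like the Sprr2 sum. The members and lists were chosen with earlier results of these data known. Promoters are from RefSeq (GRCm38.p6) and coding sequences from GENCODE M21, and identities and motif matches were computed with Python 3.11.15 and Biopython 1.88.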

Additional observations from a re-analysis of the deposited data

How the results depend on the processing

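The log2 fold change of the Sprr2 sum was 7.53 and lay between 6.34 and 7.92 when each sample was left out in turn. It was 5.39 by limma on log2(FPKM + 1), where the pseudocount exceeds every control value. Under the other tools and scalings run for it, it lay between 6.79 and 7.55. The number of genes called was 173, against 330 by DESeq2, 114 by limma on log2(FPKM + 1), 1678 at an adjusted p under 0.05 and 36 to 193 with a sample left out. The number of Sprr2 genes called was 1, against 5 by DESeq2, 4 without a filter, 0 with at least 10 counts required in every sample, 3 by limma on log2(FPKM + 0.1), 5 at an adjusted p under 0.05 and 0 to 5 with a sample left out. It was 0 without any 1 of the control samples, 5 without mutant 1 and 4 without mutant 3. With the 3 Sprr2a rows summed to 1, a choice made after seeing the data, it was 1. Genes of the epidermal differentiation complex called higher numbered 8, against 5 with at least 10 counts in every sample, 14 at an adjusted p under 0.05 and 1 to 9 with a sample left out. Envelope genes called higher numbered 6, against 11 at an adjusted p under 0.05 and 1 to 6 with a sample left out. Regulators called higher numbered 3, against 5 by DESeq2, 10 at an adjusted p under 0.05 and 1 to 4 with a sample left out. The lowest value for each of these lists and for the number of genes called was the one without control 2. The spread of the Sprr2 sum among mutant samples was 5.65, and 1.32 to 5.65 with a mutant sample left out. For the 5 members tested, 35 comparisons of the log2 fold change were made, each gene without each sample in turn and as a ratio of mean FPKM. Every change was smaller than the SD of the gene's log2(CPM + 0.1) over the mutant samples. That SD is wide for these genes, so staying within it says little, above all where a control sample was left out. Sprr2f moved from 7.14 to 8.38 without control 3, and Sprr2d from 7.04 to 5.78 without mutant 1. The members were not compared under the other tools and scalings. The cause of these changes was not tested.

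Replicate numbers are shared between the groups, but the labels name no litter, batch or day behind them. Deviations of same-numbered samples from their group means correlated between -0.07 and 0.07, and 2 of 6 samples correlated best with their own number. With the replicate block, 176 genes and 4 Sprr2 genes were called, and the log2 fold change of the Sprr2 sum was 7.45.

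At this depth the control levels of Sprr2b, Sprr2e, Sprr2i and Sprr2k cannot be told from 0, so their ratios are bounds or have wide intervals. Groups of 3 samples are too small for a test of single outlying samples, and mutant 1 is described without one.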
